A study of Homo sapiens with 30 samples.

Results

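The genes described here cover the entry of glucose into the cell, its first phosphorylation, and the making, export and diversion of its end products. The 10 members, chosen by symbol in both expression tables, are the glucose transporter genes SLC2A1, SLC2A3 and SLC2A4, the hexokinase genes HK1 and HK2, the lactate dehydrogenase genes LDHA and LDHB, the monocarboxylate transporter genes SLC16A1 and SLC16A3, and the pyruvate dehydrogenase kinase gene PDK1. They are 10 of the 16407 genes in the OPM2 table and of the 17286 in the Delta47 table. Their identifiers in the tables are 6513, 6515, 6517, 3098, 3099, 3939, 3945, 6566, 9123 and 5163 in that order.

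OPM2 and Delta47 are human myeloma cell lines, that is, lines grown from a plasma cell cancer. Poly-A RNA was sequenced from unedited cells (WT) of each line and from cells in which exon 2 of FOXM1, which encodes a forkhead transcription factor of the cell cycle, had been cut with Cas9 and a guide RNA. KO1 and KO2 are FOXM1 knockout clones, grown out by limiting dilution and carrying no vector, so each is 1 clone, and what sets it apart from WT may be a property of the clone. OPM2 KO1R is the KO1 clone given a lentiviral FOXM1c vector and sorted on GFP, and OPM2 KO1EV is the same clone with the empty vector. Delta47 KO2R is the KO2 clone with the FOXM1c vector. The Delta47 empty-vector group was not analysed here, so KO2R was set against KO2 cells that had neither a vector nor a sort. Each group has 3 libraries, 27 in all, and the labels do not say whether these were grown separately. The p-values therefore describe a spread between libraries that may be technical. The clones were compared with WT to ask what goes with the loss of FOXM1, and the vector groups with their knockout background to ask what turns with its return.

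Glucose enters cells through facilitative transporters. SLC2A1 (GLUT1) serves basal uptake in most dividing cells, SLC2A3 (GLUT3) is a high-affinity transporter best known from neurons, and SLC2A4 (GLUT4) is the insulin-responsive transporter of muscle and fat. Hexokinases trap glucose as glucose 6-phosphate, and lactate dehydrogenase interconverts pyruvate and lactate, with the LDHA subunit the main form in glycolytic cells and LDHB in oxidative ones. Lactate crosses the membrane through SLC16A1 (MCT1) and SLC16A3 (MCT4), the latter a lactate exporter of glycolytic cells, and PDK1 inactivates pyruvate dehydrogenase and so holds pyruvate back from the mitochondria.

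Promoter sequence from RefSeq (GRCh38.p14) was found for 7 of the 10 members, namely SLC2A1, HK1, HK2, LDHA, LDHB, SLC16A3 and PDK1. The 250 bases before the first listed start are printed for SLC2A1, HK2 and LDHA, which fell in all 4 clones in the results given further on, and for LDHB, the paired gene that did not. Capitals mark ACGTG or GCGTG on either strand (CACGT or CACGC on the printed strand), the core letters of the hypoxia response element.
SLC2A1, chr1:42958869-42959118, minus strand: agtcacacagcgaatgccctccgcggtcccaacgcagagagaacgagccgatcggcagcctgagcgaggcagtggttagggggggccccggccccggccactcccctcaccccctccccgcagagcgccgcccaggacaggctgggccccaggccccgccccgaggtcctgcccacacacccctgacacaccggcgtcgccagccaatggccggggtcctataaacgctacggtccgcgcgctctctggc
HK2, chr2:74833877-74834126, plus strand: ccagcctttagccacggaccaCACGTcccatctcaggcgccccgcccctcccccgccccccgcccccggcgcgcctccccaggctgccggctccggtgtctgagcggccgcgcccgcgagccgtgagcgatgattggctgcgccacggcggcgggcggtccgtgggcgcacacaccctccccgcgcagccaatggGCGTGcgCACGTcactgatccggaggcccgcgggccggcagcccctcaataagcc
LDHA, chr11:18394313-18394562, plus strand: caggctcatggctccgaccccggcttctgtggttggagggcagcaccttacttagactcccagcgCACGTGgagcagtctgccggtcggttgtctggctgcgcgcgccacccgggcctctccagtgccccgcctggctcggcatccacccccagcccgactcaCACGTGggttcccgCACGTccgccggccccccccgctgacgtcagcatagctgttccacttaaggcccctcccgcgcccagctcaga
LDHB, chr12:21657843-21658092, minus strand: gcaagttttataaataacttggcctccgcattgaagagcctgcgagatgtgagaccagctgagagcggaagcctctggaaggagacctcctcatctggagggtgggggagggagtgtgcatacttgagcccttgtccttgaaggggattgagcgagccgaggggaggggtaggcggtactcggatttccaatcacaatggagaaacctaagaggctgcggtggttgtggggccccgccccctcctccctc
The LDHA window holds CACGTG, which reads the same on both strands and so contains ACGTG on each, at 2 places, and a single CACGT besides. The HK2 window holds CACGT at 2 places and GCGTG at 1. The SLC2A1 and LDHB windows hold neither core. Of 35116 promoter windows of the same length, 18.5% held ACGTG, 32.2% GCGTG and 6.34% CACGTG on either strand. The cell cycle homology letters TTTGAA (13.3% of all windows) and TTCGAA (1.19%) and the forkhead core TAAACA (11%) were found in none of the 4 printed windows. CCAAT, the NF-Y letters (32% of all windows), was found once in the SLC2A1 window and the LDHB window, 2 times in that of HK2 and not in that of LDHA. GGGCGG, the GC box (42.6%), was found 2 times in the SLC2A1 window, 4 times in that of HK2 and 1 time in that of LDHB. Other listed starts differ. The window of the second LDHA start held GCGTG 1 time, GGGCGG 4 times and no ACGTG, and that of HK2 held CACGTG 2 times and no CCAAT. Among the genes not printed, SLC16A3, PDK1 and HK1 held a core at later starts and not at the first. These are matches of letters in a short window and not measured sites.

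The OPM2 values are FPKM, fragments scaled to transcript length and to the mapped total of the library. The Delta47 table names no unit, and its value is called the expression value. Across 9452 genes it depended on transcript length as the OPM2 FPKM did (slope of their log2 difference on log2 length −0.05), so levels of different genes were compared as per-length values in both lines. The columns sum to 510776 to 566016 in OPM2 and to 534185 to 633778 in Delta47. The highest Delta47 sums are those of KO2R (607461 to 633778, beside 534185 to 552748 in WT). Neither set of sums gives reads, so the depth of the libraries is unknown. Across genes, the Delta47 log2 differences went with transcript length in some comparisons. Spearman's rho was −0.38 in KO2R against KO2 and −0.34 in KO2R against WT. It was −0.28 in KO1 and −0.05 in KO2 against WT. The targeted gene FOXM1 averaged 175.9 FPKM in OPM2 WT, 92.1 in KO1, 62.1 in KO2, 106.7 in KO1EV and 277.5 in KO1R. In Delta47 its mean was 88.9 in WT, 47.9 and 46.2 in clones KO1 and KO2, and 99.4 in KO2R. Of 10 plasma cell markers, 9 were expressed in each line, with CD27 at or near 0. In OPM2, KO2 replicate 3 and KO1EV replicate 3 stood apart from the other libraries of their groups (SD of the log2 deviation over genes 0.53 and 0.27, against 0.10 to 0.28 for the rest, the highest of which are the other KO2 libraries). In bulk RNA, fewer cells with a transcript and less of it per cell cannot be told apart.

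**Figure D1:**
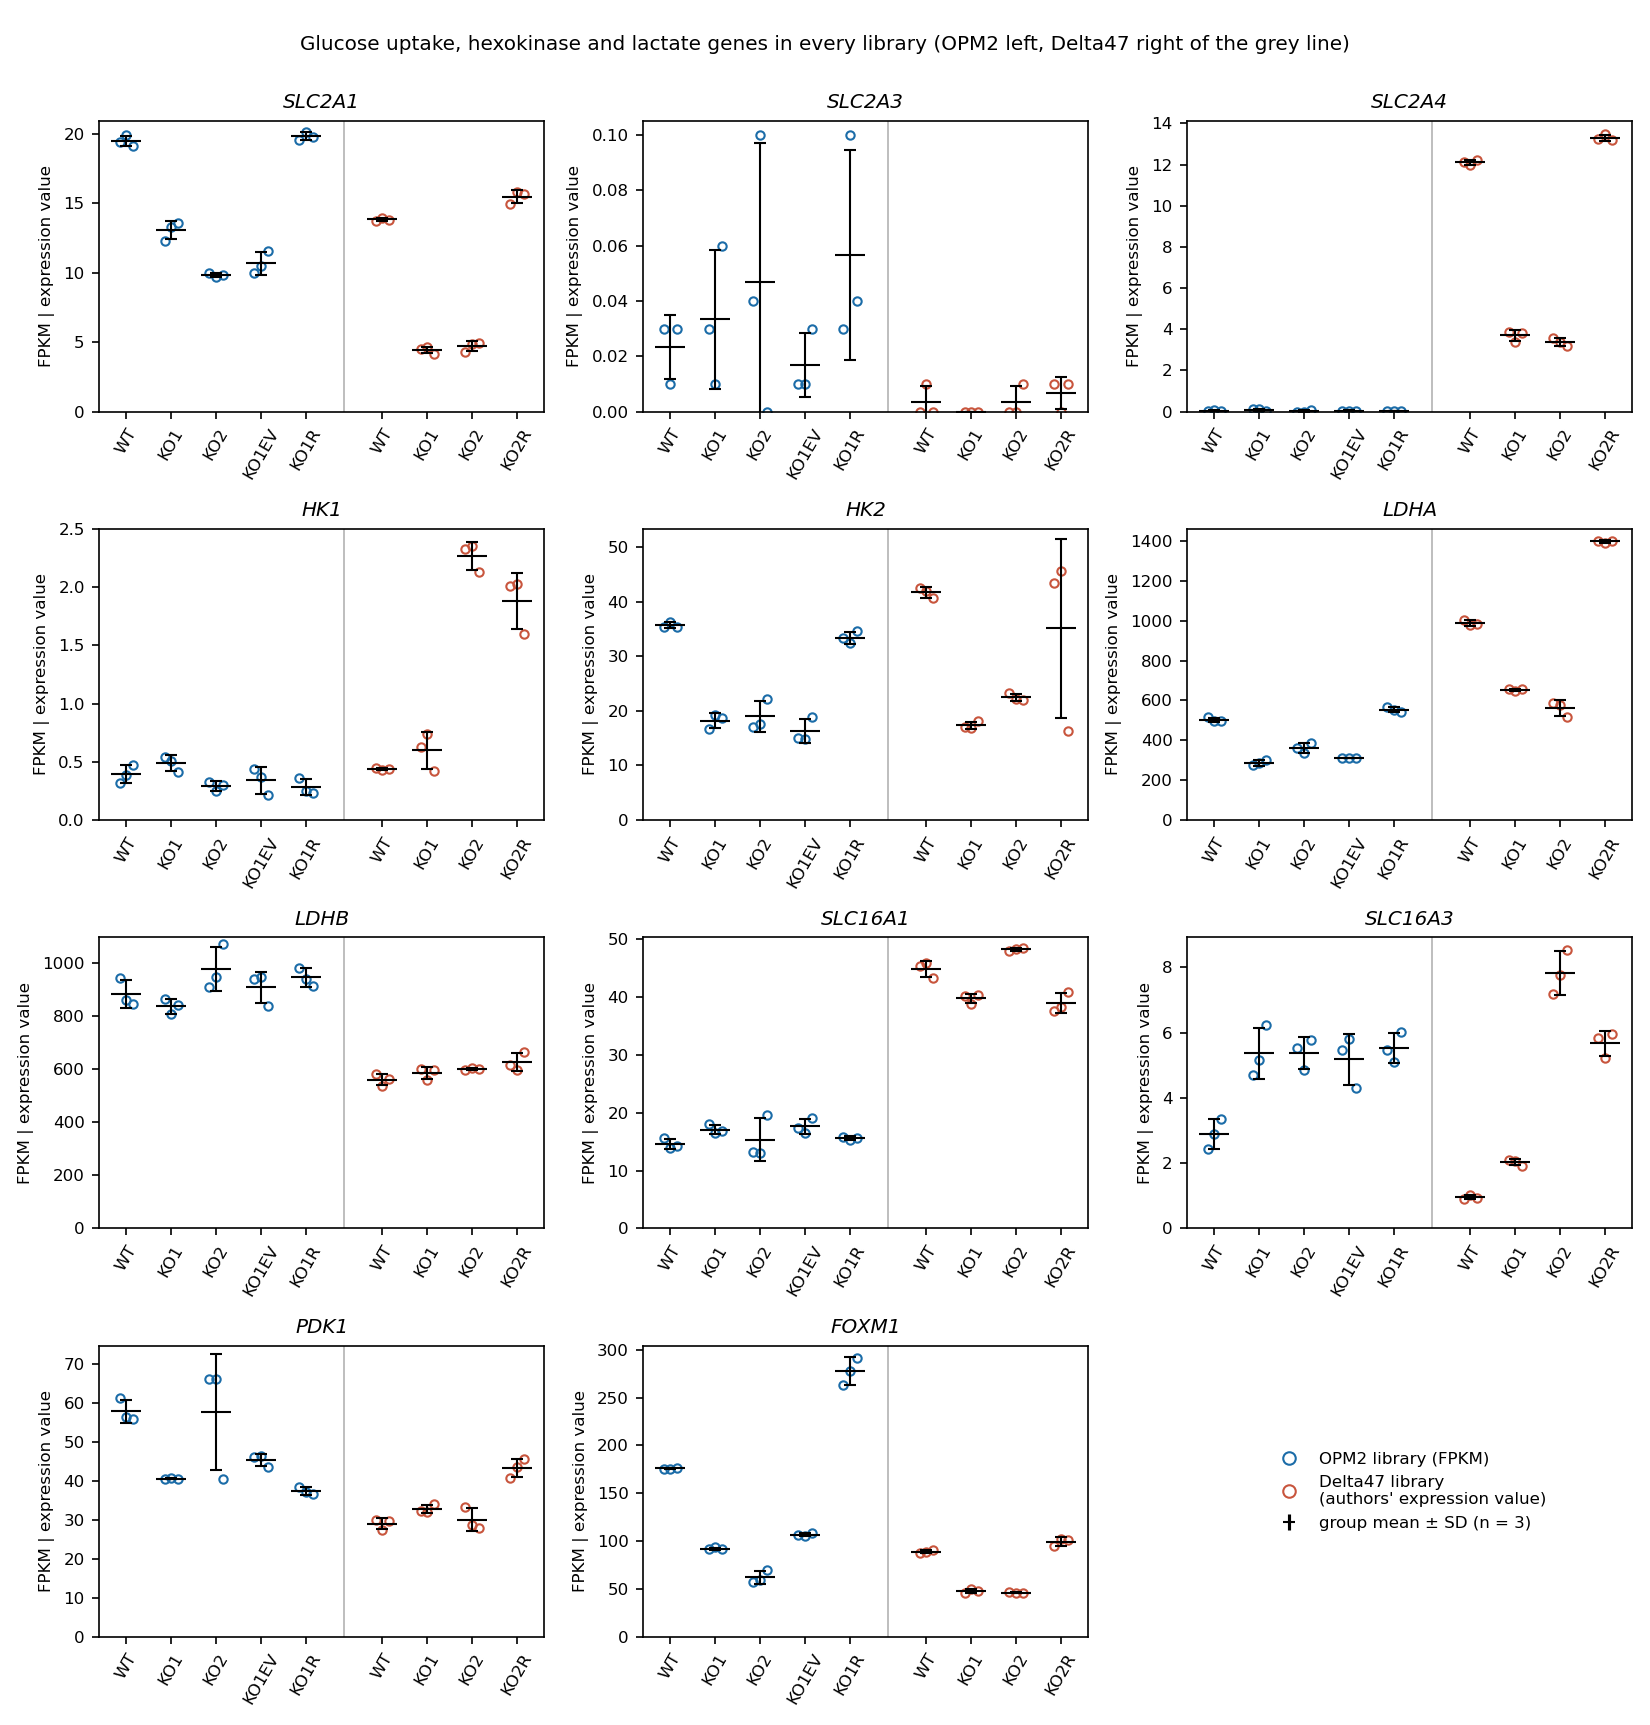
Level of each member and of FOXM1 in every library, as FPKM in OPM2 (blue, left of the grey line) and as the expression value in Delta47 (red, right). Circles are libraries and black bars the group mean ± SD (n = 3), with bars that would pass below 0 ended at the axis; SLC2A1, HK2 and LDHA are lower in the knockout groups than in WT in both lines, and 1 Delta47 KO2R library of HK2 lies at 16.25 beside 43.38 and 45.76.

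SLC2A1, HK2 and LDHA fell in all 4 clones, and SLC2A4 in both clones of Delta47, the line where it was tested. The other tested members did not fall in every clone, and PDK1 and SLC16A1 went different ways between clones. The test was limma-trend on log2(value + 1), over the genes that reached 1 in 3 or more libraries of the line. A call means an adjusted p below 0.05, with adjustment over all tested genes. By this filter 7 members were tested in OPM2 and 9 in Delta47. HK1 passed in Delta47 through KO2 and KO2R alone, the groups where it is high, so its place among the members called higher there follows from the filter and is a description. The same holds for SLC16A3 against WT in Delta47. Its WT libraries lay at 0.89, 1.01 and 0.94, and the edited groups carried it past the filter. Differences are on the log2(value + 1) scale and understate the change of low genes.

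In OPM2 KO1, 4 of 7 tested members were called lower than in WT (6.72% of all tested genes were lower) and 1 higher (14.5% of all). In OPM2 KO2, 3 were lower (background 7.82%) and 1 higher (6.54%). SLC2A1, HK2 and LDHA were lower and SLC16A3 higher in both clones. In KO1R against KO1EV, 3 of 7 members were called, SLC2A1, HK2 and LDHA, each of them higher (3.1% of all tested genes were higher and 5.12% lower). The members' median difference was −0.50 in KO1, −0.04 in KO2 and 0.09 in KO1R against KO1EV, beside 0.07, 0.02 and −0.06 over all tested genes.

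In Delta47, where far more genes were called, 5 of 9 tested members were lower in KO1 than in WT (23.7% of all tested genes) and 2 higher (28.9%). In KO2, 4 were lower (15.2%) and 3 higher (28.4%), with HK1 and SLC16A3 among the latter. SLC2A1, SLC2A4, HK2 and LDHA were lower and, through the filter, SLC16A3 higher in both clones. In KO2R against KO2, 4 members were higher (25.2%), namely SLC2A1, SLC2A4, LDHA and PDK1, and 2 lower (36.8%), namely SLC16A1 and SLC16A3. The members' median difference was −0.17 in KO1, 0.04 in KO2 and 0.49 in KO2R against KO2, beside 0.02, 0.05 and −0.05 over all tested genes. The clone and vector comparisons share groups within each line (WT for both clones, and KO2 for the last pair in Delta47), so their values are given side by side and not as separate support.

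**Figure D2:**
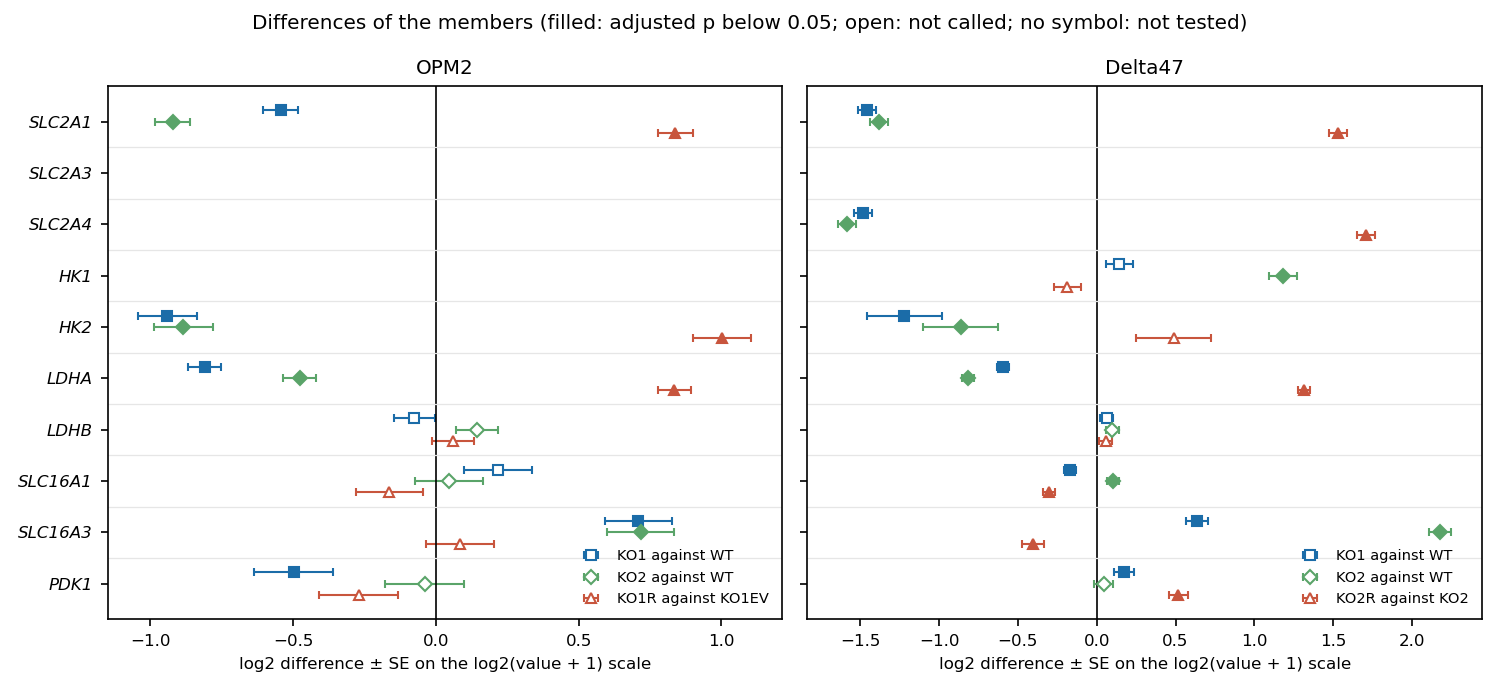
Log2 difference of each tested member with its SE, on the log2(value + 1) scale, for the clones against WT and the vector group against its knockout background, in OPM2 (left) and Delta47 (right). Filled symbols were called at an adjusted p below 0.05, open symbols were not, and members with no symbol were not tested; SLC2A1 and LDHA lie left of 0 in each clone and right of 0 in each vector comparison, while SLC16A3 lies right of 0 in each clone.

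SLC2A1 fell in every clone, further in Delta47 than in OPM2, and stood near the WT level in both FOXM1c vector groups. Its FPKM in OPM2 was 19.43, 19.9 and 19.15 in WT, 12.31, 13.29 and 13.58 in KO1, and 9.95, 9.7 and 9.8 in KO2. It was 9.97, 10.46 and 11.57 in KO1EV and 19.55, 20.16 and 19.8 in KO1R. The 3 knockout groups without the FOXM1c vector lie below every WT library, and KO1R overlaps WT. The mean was 67.0% of WT in KO1 (log2 difference −0.54 ± 0.06 (SE), adjusted p = 3.95e-05) and 50.4% in clone KO2 (−0.92 ± 0.06, adjusted p = 3.69e-07). KO1R exceeded KO1EV by 0.84 ± 0.06 (adjusted p = 1.39e-06) and differed from WT by 0.02 ± 0.06 (adjusted p = 0.847). KO2 lay below KO1 by −0.38 ± 0.06 (adjusted p = 0.000457).

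SLC2A1 was also lower in OPM2 KO1EV than in untransduced KO1, with no overlap of the libraries (−0.27 ± 0.06, adjusted p = 0.0197). It was the 1 member of 7 called in that comparison (background 3.17% lower and 1.78% higher). The call was lost without KO1 replicate 2 or 3 or KO1EV replicate 1 or 2 (adjusted p = 0.0848 to 0.111) and with only these groups in the fit (adjusted p = 0.0751).

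In Delta47 the SLC2A1 expression value was 13.75, 13.97 and 13.81 in WT, 4.47, 4.62 and 4.16 in KO1, 4.28, 4.87 and 4.95 in KO2, and 14.92, 15.8 and 15.7 in KO2R. Both clones lie far below WT and overlap each other, while all KO2R libraries lie above WT. The mean was 31.9% of WT in KO1 (−1.46 ± 0.06, adjusted p = 7.66e-12) and 34.0% in clone KO2 (−1.38 ± 0.06, adjusted p = 9.73e-12). KO2R exceeded KO2 by 1.53 ± 0.06 (adjusted p = 1.08e-11). Its excess over WT was small (0.15 ± 0.06, adjusted p = 0.0287). That call was lost in 5 of 6 removals of a single library (adjusted p = 0.0533 to 0.0852) and with the trend on transcript length removed (0.02, adjusted p = 0.757).

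SLC2A4 was a member of the expressed set in Delta47 alone. In OPM2 its 15 libraries lay between 0 and 0.13 FPKM, and it was not tested. In Delta47 its expression value was 12.11, 11.99 and 12.24 in WT, 3.89, 3.39 and 3.81 in KO1, 3.59, 3.37 and 3.17 in KO2, and 13.24, 13.47 and 13.19 in KO2R. The clones overlap each other and lie below WT and KO2R without overlap. The mean fell to 30.5% of WT in KO1 (−1.48 ± 0.06, adjusted p = 5.89e-12) and to 27.9% in clone KO2 (−1.58 ± 0.06, adjusted p = 1.78e-12), and rose by 1.71 ± 0.06 in KO2R against KO2 (adjusted p = 3.84e-12). KO2R lay 0.12 ± 0.06 above WT, which was not called (adjusted p = 0.0622), though it was after quantile scaling (0.16, adjusted p = 0.0167) or median scaling (0.17, adjusted p = 0.0136). The ratio of SLC2A1 to SLC2A4 means stayed between 1.14 and 1.39 over the 4 Delta47 groups. Of 5 adipose or muscle markers in the Delta47 table, 0 reached 1 in 3 libraries, their sum was 0.52 to 1.38 per library, and MB and MYH7 were listed at 0 in WT, KO1 and KO2.

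SLC2A3 was close to 0 in both lines. No library exceeded 0.1 FPKM in OPM2 or 0.01 in Delta47, where 8 of 12 libraries list it at 0. It has a near-identical paralog, SLC2A14, and reads shared by the pair may have been counted for either. How shared reads were counted is not given in the sources used here, which also touches LDHA, LDHB and HK2, which have processed pseudogenes. The libraries are not stated to keep the strand, so reads of SLC2A1 and SLC16A1 cannot be told from those of their antisense genes.

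HK2, the inducible hexokinase of many tumours, fell in all 4 clones. In OPM2 the FPKM was 35.34, 36.38 and 35.42 in WT, 16.61, 19.22 and 18.66 in KO1, 17.1, 17.69 and 22.23 in KO2, 15.12, 14.89 and 18.8 in KO1EV, and 33.33, 32.41 and 34.58 in KO1R. Every knockout library without the FOXM1c vector lies below every WT and KO1R library, the 2 libraries that stand apart included. The mean was 50.9% of WT in KO1 (−0.94 ± 0.10, adjusted p = 3.17e-05) and 53.2% in clone KO2 (−0.88 ± 0.10, adjusted p = 6.57e-05). KO1R exceeded KO1EV by 1.00 ± 0.10 (adjusted p = 4.11e-05) and lay 0.09 ± 0.10 under WT (adjusted p = 0.612).

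In Delta47 the HK2 expression value was 42.58, 42.03 and 40.64 in WT, 17.13, 16.81 and 18.12 in KO1, 23.29, 22.13 and 22.05 in KO2, and 43.38, 45.76 and 16.25 in KO2R. The first 2 KO2R libraries lie above WT, and the third lies below every KO2 library. HK2 was 41.6% of WT in KO1 (−1.22 ± 0.24, adjusted p = 0.000444) and 53.9% in clone KO2 (−0.86 ± 0.24, adjusted p = 0.00757, but 0.0631 with robust empirical Bayes). These SEs carry the spread of KO2R, and with only WT and KO2 in the fit the SE was 0.04 (adjusted p = 4.58e-09).

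The HK2 difference between KO2R and KO2 depended on that library and on the length trend. It was 0.49 ± 0.24 with all 3 libraries (adjusted p = 0.0845), 0.96 ± 0.05 without KO2R replicate 3 (adjusted p = 6.35e-10), and 0.75 ± 0.26 with all 3 libraries and the length trend removed (adjusted p = 0.0194). In this library HK2 deviated from the other 2 by −1.40 (log2), and 3 of 11001 tested genes deviated as far, HK2, CT45A6 and EIF3CL, the last 2 named after their values were seen. In the same library SLC2A1 (15.7), LDHA (1402.9) and FOXM1 (101.29) lay beside the other KO2R libraries. What sets the library apart in HK2 was not tested.

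HK1, the constitutive hexokinase of most tissues, was low throughout, and its highest values were those of Delta47 KO2 and KO2R. In OPM2 it lay between 0.21 and 0.54 FPKM and was not tested. In Delta47 its expression value was 0.45, 0.43 and 0.44 in WT, 0.63, 0.74 and 0.42 in KO1, 2.33, 2.35 and 2.13 in KO2, and 2.01, 2.03 and 1.6 in KO2R. KO2 and KO2R lie above all other libraries, and KO1 overlaps WT. KO2 was 516% of WT, a log2 difference of 1.18 ± 0.09, and KO2R lay above WT by 1.00 ± 0.09. Both are given with no test, since only these 6 libraries carried HK1 past the filter. KO1 was not called against WT (0.14 ± 0.09, adjusted p = 0.177), but without KO1 replicate 3, its lowest library, it was (0.23 ± 0.09, adjusted p = 0.0463). KO2R was not called against KO2 (−0.19 ± 0.09, adjusted p = 0.0739). HK2 nonetheless exceeded HK1 in every group, by a ratio of means of 37.3 to 119 in OPM2 and of 9.91 to 94.9 in Delta47.

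LDHA, among the most abundant transcripts of both lines, fell in each clone and rose above its knockout background in each FOXM1c vector group. In OPM2 the FPKM was 515.96, 495.31 and 495.77 in WT, 273.83, 285.36 and 299.78 in KO1, 359.14, 338.46 and 385.14 in KO2, 309.62, 309.66 and 310.95 in KO1EV, and 564.93, 553.81 and 543.18 in KO1R. No knockout library without the FOXM1c vector reaches WT. The KO1R libraries lie above those of WT, a difference that was not called (0.14 ± 0.06, adjusted p = 0.126) but was with only these groups in the fit (0.0115) or without the 2 libraries that stand apart (0.00785). The mean was 57.0% of WT in KO1 (−0.81 ± 0.06, adjusted p = 7.36e-07) and 71.8% in clone KO2 (−0.48 ± 0.06, adjusted p = 9.03e-05), and KO1R exceeded KO1EV by 0.83 ± 0.06 (adjusted p = 9.5e-07). LDHA and SLC2A1 ranked the OPM2 clones in opposite order. LDHA was higher in KO2 than in KO1 (0.33 ± 0.06, adjusted p = 0.000806, but 0.0541 with only these groups in the fit), while SLC2A1 was lower.

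In Delta47 the LDHA expression value was 1003.93, 978.91 and 982.06 in WT, 655.6, 648.3 and 657.27 in KO1, 588.36, 578.96 and 518.09 in KO2, and 1401.6, 1390.92 and 1402.9 in KO2R. The groups do not overlap. The mean was 66.1% of WT in KO1 (−0.60 ± 0.04, adjusted p = 4.31e-09), 56.8% in clone KO2 (−0.82 ± 0.04, adjusted p = 7.02e-11) and 142% in KO2R (0.50 ± 0.04, adjusted p = 1.36e-08). KO2R exceeded KO2 by 1.32 ± 0.04 (adjusted p = 2e-12). KO2 lay under KO1 by −0.22 ± 0.04 (adjusted p = 0.000375, but −0.07 and 0.17 after quantile scaling).

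LDHB differed less from WT than LDHA did in the clones. In OPM2 its group means were 836 FPKM in KO1, 882 in WT, 907 in KO1EV, 944 in KO1R and 975 in KO2, and KO1, KO2 and KO1R were not called against WT (adjusted p = 0.453, 0.227 and 0.42). In Delta47 the means ran from 560 in WT through 585 in KO1 and 599 in KO2 to 625 in KO2R, and the clones were not called (0.06 ± 0.04, adjusted p = 0.207, and 0.10 ± 0.04, adjusted p = 0.0636). KO2 was called higher after quantile scaling (0.17, adjusted p = 0.0121), without WT replicate 1 (0.12, adjusted p = 0.0375), with only these groups in the fit (adjusted p = 0.0335) and with the replicate block (adjusted p = 0.0419). KO2R was higher than WT (0.16 ± 0.04, adjusted p = 0.00292), but that difference was −0.02 after quantile scaling (adjusted p = 0.733) and 0.03 with the length trend removed (adjusted p = 0.522).

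The ratio of LDHA to LDHB means in OPM2 was 0.570 in WT, 0.342 in KO1, 0.370 in KO2, 0.342 in KO1EV and 0.587 in KO1R. In Delta47 WT it was 1.77, against 1.12 in KO1, 0.938 in KO2 and 2.24 with the vector. LDHB was the more abundant transcript in all 15 OPM2 libraries and in all 3 of Delta47 KO2, and LDHA in the other 9 of Delta47.

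**Figure D3:**
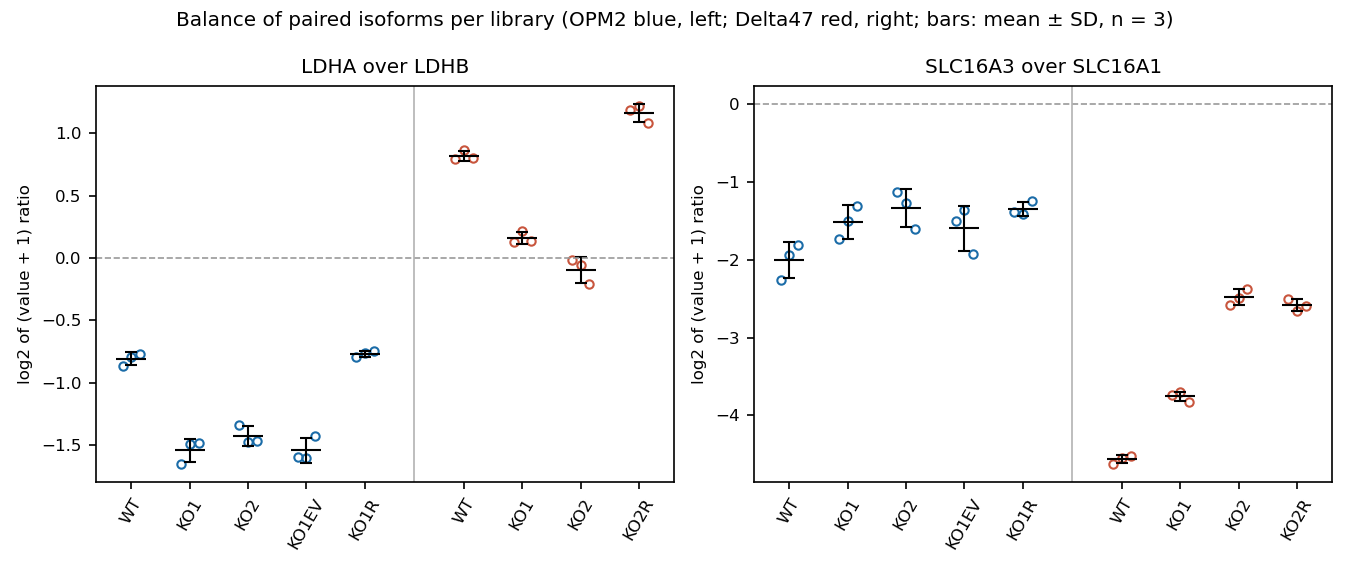
Log2 ratio of LDHA to LDHB (left) and of SLC16A3 to SLC16A1 (right), each with 1 added to both values, per library in OPM2 (blue) and Delta47 (red), with black bars for the mean ± SD (n = 3). For LDHA over LDHB the knockout groups without the FOXM1c vector lie below WT and the FOXM1c vector groups near or above it, with Delta47 KO2 just under 0. For SLC16A3 over SLC16A1 the Delta47 KO2 and KO2R groups lie together, above WT.

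SLC16A3 was the member that rose in all 4 clones, and it stayed high with the FOXM1c vector. In OPM2 the FPKM was 2.44, 2.89 and 3.34 in WT, 4.7, 5.16 and 6.23 in KO1, 5.52, 4.84 and 5.77 in KO2, 5.46, 5.79 and 4.29 in KO1EV, and 5.47, 5.11 and 6.01 in KO1R. All 4 edited groups lie above WT and overlap each other. The mean was 186% of WT in KO1 (0.71 ± 0.12, adjusted p = 0.00116) and 186% in clone KO2 (0.72 ± 0.12, adjusted p = 0.0011). KO1R was not called against KO1EV (0.09 ± 0.12, adjusted p = 0.675) and was above WT (0.75 ± 0.12, adjusted p = 0.000845).

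In Delta47 the SLC16A3 expression value was 0.89, 1.01 and 0.94 in WT, 2.09, 2.06 and 1.92 in KO1, 7.19, 7.77 and 8.54 in KO2, and 5.84, 5.22 and 5.95 in KO2R. The 4 groups do not overlap. The mean was 214% of WT in KO1 (0.64 ± 0.07) and 827% in clone KO2 (2.18 ± 0.07), and the clones differed by 1.54 ± 0.07 (adjusted p = 1.38e-10). KO2R was lower than KO2 (−0.40 ± 0.07, adjusted p = 0.000114) but remained above WT by 1.78 ± 0.07. The differences from WT are given with no test, since the edited groups carried SLC16A3 past the filter. The sum of the fibroblast or endothelial markers rose in the edited groups through PECAM1, the 1 of 5 at 1 or more in 3 libraries. PECAM1 averaged 1.19 in WT, 3.19 in KO1 and 14.5 in KO2. COL1A1, COL1A2 and COL3A1 were no higher in the clones than in WT. The summed value of the list per library was 1.64 to 1.71 in WT, from 3.2 to 3.5 in KO1, from 14.16 to 15.87 in KO2 and from 13.45 to 15.02 in KO2R, while COL1A1, COL1A2, COL3A1 and VWF had group means under 1 in WT, KO1 and KO2. Epithelial markers, 3 of 4 of them at 1 or more in 3 libraries, also had higher sums in the edited groups, at 5.49 to 6.47 in WT, from 7.94 to 8.55 in KO1, from 9.59 to 11.2 in KO2 and from 12.01 to 12.87 in KO2R. In KO1 these genes did not move together, as EPCAM rose from 2.12 to 5.57 while KRT8 fell from 1.28 to 1.18 and KRT18 from 2.35 to 1.38. In KO2 each of them had a mean above WT, with EPCAM at 3.96, KRT8 at 1.38 and KRT18 at 4.72. CDH1 averaged 0.113 in WT and 0.483 in KO2. The part of either marker list in the SLC16A3 and HK1 differences was not tested.

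SLC16A1 moved little. In OPM2 the FPKM was 15.54, 13.95 and 14.22 in WT, 17.98, 16.44 and 16.85 in KO1, 13.26, 13.1 and 19.61 in KO2, 17.29, 16.52 and 19.05 in KO1EV, and 15.88, 15.28 and 15.66 in KO1R. The highest KO2 and KO1EV values come from the 2 libraries that stand apart. KO1 lies above WT without overlap but was not called (0.22 ± 0.12, adjusted p = 0.193), and was called without those libraries in the fit (adjusted p = 0.00168). In Delta47 the value was 45.45, 45.83 and 43.36 in WT, 40.23, 38.87 and 40.31 in KO1, 48.01, 48.39 and 48.43 in KO2, and 37.67, 38.25 and 40.95 in KO2R. KO1 was lower than WT (−0.17 ± 0.04, adjusted p = 0.00179), and KO2R was lower than KO2 (−0.30 ± 0.04, adjusted p = 5.1e-06) and than WT (−0.20 ± 0.04, adjusted p = 0.000258). KO2 was just called above WT (0.10 ± 0.04, adjusted p = 0.042), a call that ended in 5 of 6 removals of a library (0.0546 to 0.162), after quantile or median scaling (0.159 and 0.316), with the length trend removed (0.281) and with the replicate number as a block (0.058).

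SLC16A1 remained the more abundant of the 2 transporter transcripts everywhere. The ratio of SLC16A3 to SLC16A1 means was 0.198 in OPM2 WT and 0.294 to 0.354 in the edited groups. In Delta47 WT it was 0.0211, against 0.0508 in KO1, 0.162 in KO2 and 0.146 with the vector.

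PDK1 differed between the OPM2 clones, and in KO1 it went different ways in the 2 lines. In OPM2 the FPKM was 61.18, 56.27 and 55.8 in WT, 40.4, 40.77 and 40.45 in KO1, 66.04, 66.1 and 40.41 in KO2, 45.98, 46.29 and 43.58 in KO1EV, and 38.38, 37.04 and 36.62 in KO1R. KO1 and both groups made from it lie below WT, and KO2 is split between 2 libraries above WT and replicate 3, which lies among the KO1 libraries. KO1 was lower than WT (−0.50 ± 0.14, adjusted p = 0.0224), a call that ended when any 1 of its 6 libraries was left out (0.0502 to 0.0802). KO2 was not called (−0.04 ± 0.14, adjusted p = 0.881), and without KO2 replicate 3 it was higher than WT (0.19 ± 0.05, adjusted p = 0.0108). The FOXM1c vector did not bring PDK1 back, since KO1R was lower than WT (−0.61 ± 0.14, adjusted p = 0.0095) and not called against KO1EV (−0.27 ± 0.14, adjusted p = 0.258, but 0.000184 without the 2 libraries that stand apart).

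In Delta47 the PDK1 value was 29.87, 27.3 and 29.65 in WT, 32.32, 31.93 and 33.98 in KO1, 33.33, 28.66 and 27.85 in KO2, and 40.76, 43.39 and 45.56 in KO2R. KO2 overlaps WT, and KO2R lies above all other libraries. KO2R exceeded KO2 by 0.52 ± 0.06 (adjusted p = 1.85e-06) and WT by 0.56 ± 0.06 (adjusted p = 4.97e-07). KO1 was just called higher than WT (0.17 ± 0.06, adjusted p = 0.025), a call lost without KO1 replicate 3 (0.0909), without WT replicate 2 (0.114) and with the length trend removed (0.249).

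Restored cells were set against WT, and the clones against each other. In OPM2 KO1R against WT, 1 of 7 members was higher (SLC16A3, background 6.38%) and 1 lower (PDK1, 8.29%). In Delta47 KO2R against WT, 6 of 9 were higher (SLC2A1, LDHA, LDHB, PDK1 and, through the filter, SLC16A3 and HK1, background 34.2%) and 1 lower (SLC16A1, 34.9%). Between the OPM2 clones 3 members were higher in KO2 (LDHA, LDHB and PDK1, background 10.8%) and 1 lower (SLC2A1, 19.1%), and with only these clones in the fit 1 member was called. The LDHB call ended in 5 of 6 removals of a library (adjusted p = 0.0565 to 0.128) and after quantile scaling (0.13, adjusted p = 0.119), and the PDK1 call in 5 of 6 removals (0.0602 to 0.11). Between the Delta47 clones 3 were higher in KO2 (SLC16A1, SLC16A3 and, through the filter, HK1, background 24.9%) and 1 lower (LDHA, 17.2%). The counts of Delta47 lie beside backgrounds in which a large share of all genes was called.

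The order of levels in WT was LDHB, LDHA, PDK1, HK2, SLC2A1, SLC16A1, SLC16A3, HK1, SLC2A4 and SLC2A3 in OPM2. Each neighbour in that order was separated from the next by its libraries except SLC2A4 and SLC2A3, which overlap near 0. In Delta47 the order was LDHA, LDHB, SLC16A1, HK2, PDK1, SLC2A1, SLC2A4, SLC16A3, HK1 and SLC2A3, with no overlap of neighbours.

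Of the enzymes between hexokinase and lactate, those called in the clones were higher than in WT, with 1 exception, PFKP in OPM2 KO2. Of 15 tested in OPM2, 4 were called in KO1, all higher (PGK1, PFKP, ENO1 and PKM, which encode phosphoglycerate kinase, phosphofructokinase, enolase and pyruvate kinase), and 1 in KO2, PFKP, which was lower (−0.40 ± 0.12, adjusted p = 0.0339). Of the KO1 calls, ENO1 and PKM ended in all 6 removals of a library (adjusted p = 0.0649 to 0.127 and 0.0768 to 0.143), PFKP without 5 of them (up to 0.0884) and PGK1 without KO1 replicate 3 (0.0501). The number called higher in KO1 was 0 to 2 with 1 library left out, and 11 of 15 without the 2 libraries that stand apart. The PFKP call in KO2 was lost without KO2 replicate 1 or 2 or any WT library (up to 0.111). In KO1R against KO1EV 0 of 15 were called by limma, with 2 lower and 0 higher at an unadjusted p below 0.05. Over all tested OPM2 genes 14.5% were higher and 6.72% lower in KO1, 6.54% and 7.82% in KO2, and 3.1% and 5.12% in KO1R against KO1EV. The 1 of 15 in KO2 lies near its share. These shares also stand beside the OPM2 counts of the lists that follow. The medians were 0.21, −0.03 and −0.10, beside 0.07, 0.02 and −0.06 over all tested genes. In Delta47 13 of 16 were called in KO1 and 10 of 16 in KO2, all of them higher; 9 were called higher in KO1 after quantile scaling and 11 with the length trend removed, which also called 1 lower. The aldolase gene ALDOC, for example, rose from 49.8 in WT to 89.7 in KO1 (0.84 ± 0.05, adjusted p = 3.06e-09) and to 82.3 in KO2 (0.72 ± 0.05, adjusted p = 1.9e-08). In KO2R against KO2 6 rose, ALDOC again among them (0.49 ± 0.05, adjusted p = 1.09e-06), and 4 fell, but after quantile scaling 5 rose and 8 fell and after median scaling 9 rose and 3 fell. Over all tested Delta47 genes 28.9% were higher and 23.7% lower in KO1, 28.4% and 15.2% in KO2, and 25.2% and 36.8% in KO2R against KO2. The medians were 0.22, 0.20 and 0.05, beside 0.02, 0.05 and −0.05 over all tested genes.

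Of the other glucose transporters 3 were tested in OPM2 and 4 in Delta47, and none was called lower, or had an unadjusted p below 0.05 on the lower side, in a clone against WT. Called higher were 1 in OPM2 KO1, 0 in OPM2 KO2 and 2 in each Delta47 clone (28.9% of all tested genes in KO1 and 28.4% in KO2). In Delta47 these were SLC2A6 and SLC2A8, and the SLC2A8 call in KO2 was lost in 6 of 16 other settings. SLC2A6 rose in Delta47 KO1 (0.32 ± 0.08, adjusted p = 0.00254) and KO2 (0.39 ± 0.08, adjusted p = 0.000607). BSG, the chaperone that carries SLC16A1 and SLC16A3 to the membrane, rose in OPM2 KO1 (0.33 ± 0.07, adjusted p = 0.0074), in Delta47 KO1 (0.25 ± 0.04, adjusted p = 9.14e-05) and in Delta47 KO2 (0.21 ± 0.04, adjusted p = 0.000418). In OPM2 KO2 it was not called against WT (−0.17 ± 0.07, adjusted p = 0.139) and lay below KO1 (−0.50 ± 0.07, adjusted p = 0.000203). It was lower in Delta47 KO2R than in KO2 (−0.16 ± 0.04, adjusted p = 0.00217), a call lost after median scaling. Of 12 tested genes of pyruvate entry and pyruvate dehydrogenase, 2 rose and 2 fell in OPM2 KO1, 0 rose (1 at an unadjusted p below 0.05 by limma) and 1 fell in OPM2 KO2 (3 without KO2 replicate 3), 3 rose and 3 fell in Delta47 KO1, and 4 rose and 2 fell in Delta47 KO2. The Delta47 counts lie near the shares over all tested genes (28.9% higher and 23.7% lower in KO1, 28.4% and 15.2% in KO2), and in KO2 2 rose and 2 fell after quantile scaling. MPC2, a subunit of the mitochondrial pyruvate carrier, fell in Delta47 KO1 (−0.44 ± 0.04, adjusted p = 6.51e-07) and more so in KO2 (−0.63 ± 0.04, adjusted p = 9.31e-09). Among the same genes PDK3, a kinase of the PDK1 family, rose in OPM2 KO1 (0.80 ± 0.14, adjusted p = 0.00129), the clone in which PDK1 was lower.

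Of the regulators of glucose uptake and glycolysis, 1 of 13 tested was higher and 1 lower in each OPM2 clone and in KO1R against KO1EV. Without the 2 libraries that stand apart the OPM2 counts were 3 higher and 5 lower in KO1, 6 and 1 in KO2, and 2 and 4 in KO1R against KO1EV. In Delta47 3 of 12 were higher and 8 lower in KO1, 3 and 6 in KO2, and 3 and 7 in KO2R against KO2, beside 28.9% and 23.7%, 28.4% and 15.2%, and 25.2% and 36.8% of all tested genes. Their Delta47 medians were −0.18, −0.10 and −0.12, beside 0.02, 0.05 and −0.05 over all tested genes. TBC1D4, which restrains SLC2A4 vesicles until insulin acts, rose in OPM2 KO1 (0.51 ± 0.08, adjusted p = 0.000662) and KO2 (0.58 ± 0.08, adjusted p = 0.00025) and KO1R lay below KO1EV (−0.41 ± 0.08, adjusted p = 0.00573). In Delta47, the line with SLC2A4, TBC1D4 fell in KO1 (−0.60 ± 0.07, adjusted p = 2.76e-06), was not called in KO2 (0.05 ± 0.07, adjusted p = 0.576) and was lower in KO2R than in KO2 (−0.47 ± 0.07, adjusted p = 2.28e-05). TXNIP, an inhibitor of glucose uptake that promotes the internalisation of SLC2A1, rose in Delta47 KO1 (0.87 ± 0.05, adjusted p = 8.77e-10) and KO2 (0.72 ± 0.05, adjusted p = 7.86e-09) and rose again in KO2R against KO2 (0.75 ± 0.05, adjusted p = 5.42e-09). ARNT, the partner subunit of HIF1A, fell in both Delta47 clones (−0.55 ± 0.04 and −0.73 ± 0.04, adjusted p = 1.98e-08 and 5.2e-10). Of the hypoxia-response genes outside glycolysis 1 of 9 tested was lower in OPM2 KO1, and 0 were called by limma in OPM2 KO2 or in KO1R against KO1EV (0 and 1 at an unadjusted p below 0.05). Without the 2 libraries that stand apart 1 was higher and 4 lower in KO1, 4 and 0 in KO2, and 2 and 1 in KO1R against KO1EV. In Delta47 5 of 11 were higher and 4 lower in KO1, 2 higher and 3 lower in KO2, and 7 higher and 1 lower in KO2R against KO2, beside the same shares over all tested genes. In KO2 the counts were 1 and 4 after quantile or median scaling and 1 and 1 without WT replicate 2 or 3. The medians were 0.13, −0.03 and 0.25, beside 0.02, 0.05 and −0.05 over all tested genes. DDIT4, a stress-induced inhibitor of mTORC1, went from 3.27 in KO2 to 27.1 in KO2R (2.72 ± 0.06, adjusted p = 9.79e-14). KO2R also differed from WT in these genes, with 8 of 11 higher and 3 lower (34.2% and 34.9% of all tested genes), DDIT4 among those called. The median of that comparison was 0.18, beside −0.004 over all tested genes.

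**Figure D4:**
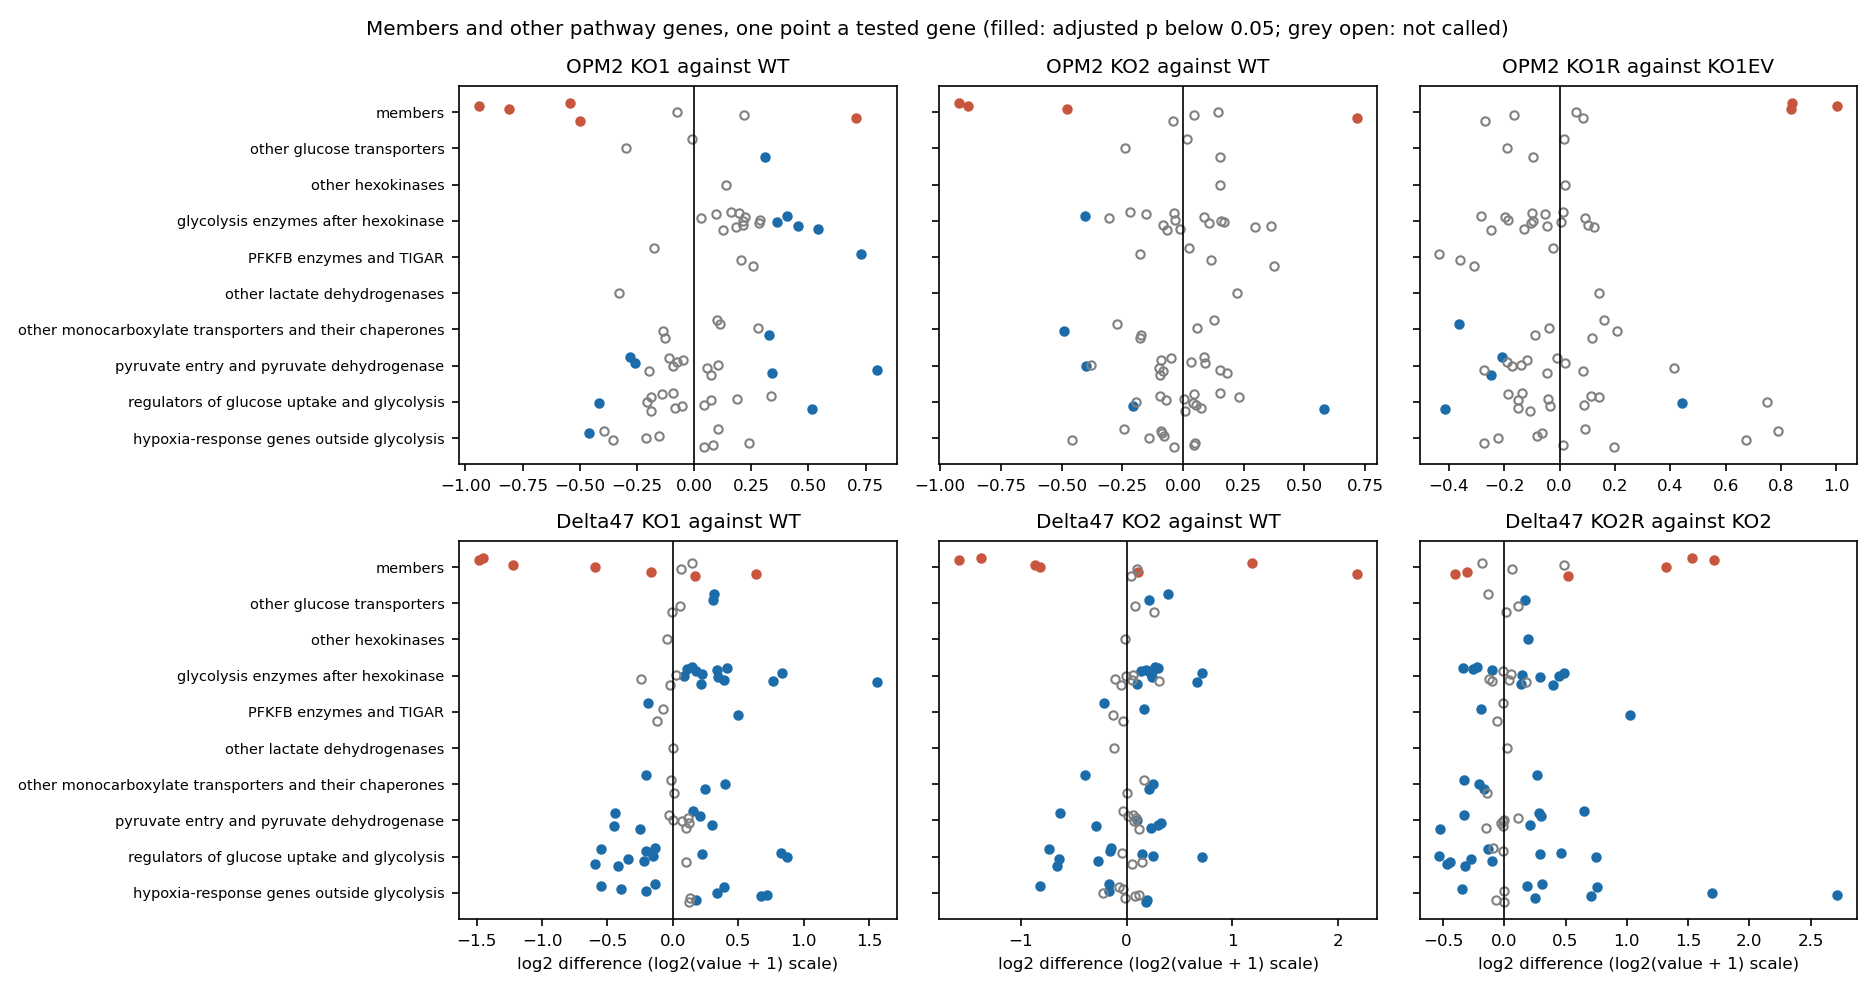
Log2 difference on the log2(value + 1) scale (horizontal) of each tested member and each tested gene of the other lists (vertical), in the clone and vector comparisons of OPM2 (top) and Delta47 (bottom). Each point is a gene, filled where called at an adjusted p below 0.05 (red for members, blue for other genes) and open grey where not; in Delta47 KO1 the glycolysis enzymes after hexokinase hold 13 called genes right of 0 and none left of it.

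The genes whose group means went most alike with those of SLC2A1, LDHA and HK2 were sought among 558 genes, by the smaller of 2 Pearson correlations over 5 OPM2 and 4 Delta47 group means. For SLC2A1 they were NEK2 (r = 0.96 in OPM2 and 0.98 in Delta47), ATF3, CENPB, CENPA and CDKN3. For LDHA they were CDC25B (0.96 and 0.97), OSER1, CHAC1, HERPUD1 and CCNB1. For HK2 they were CENPA (0.91 and 1.00), PLK1, the member SLC2A1 (0.94 and 0.91), ATF3 and RAD21. These correlations rest on few points that share their libraries and are a description only.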

How the data were processed

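Poly-A RNA of 2 myeloma lines was read as paired ends of 100 bases on a DNBSEQ instrument, per the labels' protocols. The deposited OPM2 values are FPKM, per the file headers. The deposited Delta47 table names no unit, so its values were treated as a signal, the authors' expression value. The submitters' processing notes name the genome build hg19, while its aligner and counter were not given in the sources used here. Of 30 libraries 27 were used. The Delta47 vector columns carry no clone number. The letter R, found in no other Delta47 label, matched them to KO2R. A further 3 value columns matched no single sample and were not used, and the Delta47 empty-vector group was not analysed here.

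Depth is unknown, and the interval that counting would give cannot be stated. The values of 195 and 273 sparse genes, taken as single-read steps, gave relative depths of −0.09 to 0.09 (log2) in OPM2 and −0.07 to 0.04 in Delta47. Values far from a gene's median were dropped before averaging, so this range cannot show that the depths are alike. Values were taken as log2(value + 1), for genes reaching 1 in 3 or more libraries (10309 genes in OPM2, 11001 in Delta47). For each line limma-trend (limma version 3.58.1 in R version 4.3.3) fitted all groups together. Its tests were two-sided, p-values were adjusted by Benjamini-Hochberg over the tested genes, and calls were made below 0.05. The fit was tested on simulated data. Alternatives were the pseudocount, the filter, the scaling, the variance prior, the groups and libraries in the fit, a replicate block and, added after the data were seen, removal of the trend on transcript length (GENCODE lengths). Promoters came from the RefSeq table of GRCh38.p14.

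Same-numbered libraries deviated together in 1 comparison, OPM2 KO1 against WT (r = 0.41, 0.15 and 0.21), where every pair passed 0.1, and the block left 5 members called there, as without it. The rule for named genes took all members, FOXM1, at most 4 tested genes of each list per comparison by adjusted p, and the 5 genes most like SLC2A1, LDHA and HK2. The members and lists were chosen with earlier results of these data known.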

Additional observations from a re-analysis of the deposited data

Results flagged for a closer look

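In 3 comparisons the lines went opposite ways, every library of the first group lying on one side of the second group in OPM2 and on the other side in Delta47. The difference between the lines was not tested. SLC16A1 in KO1 against WT had a log2 difference of 0.22 in OPM2, which was not called (adjusted p = 0.193), and −0.17 in Delta47 (adjusted p = 0.00179). PDK1 in KO1 against WT had −0.50 in OPM2 (adjusted p = 0.0224) and 0.17 in Delta47 (adjusted p = 0.025). The OPM2 call ended when any library of its groups was left out. The Delta47 call ended without KO1 replicate 3, without WT replicate 2 and with the length trend removed. PDK1 in the FOXM1c vector group against its knockout background had −0.27 in OPM2, not called (adjusted p = 0.258), and 0.52 in Delta47 (adjusted p = 1.85e-06). The background was the empty-vector group in OPM2 and untransduced KO2 in Delta47, so the last pair does not compare like with like.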

How the results depend on the processing

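Over settings other than leaving out 1 library, limma's result for a tested member kept its side of the threshold in 866 cases, gained a call in 22 and lost one in 16. In 3 it reversed, that is, changed sign with a call before or after. With 1 library left out the counts were 482, 7, 32 and 1. A change of sign where neither result was called counts among the kept. SLC16A1 in OPM2 KO2 against WT without KO2 replicate 3 is such a case. The reversals were PDK1 in OPM2 KO2 against WT, 0.19 both without KO2 replicate 3 and without it and KO1EV replicate 3 (−0.04 in the fit reported, and −0.16 to 0.19 with 1 library left out), and LDHB after quantile scaling in Delta47 KO2R against KO2 (−0.19) and against WT (−0.0199). SLC2A1, LDHA and HK2 kept their falls in the OPM2 clones under every setting run, as did SLC2A1, SLC2A4 and LDHA in the Delta47 clones. The members called in OPM2 KO1EV against KO1 went from 1 to 4 without the 2 libraries that stand apart, to 0 with only these groups in the fit, and ranged from 0 to 1 with 1 library left out. Those called between the OPM2 clones went from 4 to 1 with only these groups, and ranged from 2 to 4 with 1 library left out. The replicate block left the count of members called unchanged in every comparison (4 in OPM2 KO2 against WT, for example); in Delta47 KO2 against WT it gained LDHB (0.10, adjusted p = 0.0419) and lost SLC16A1 (0.10, adjusted p = 0.058). Outside OPM2 KO1 against WT, same-numbered libraries had r from −0.22 to 0.26. In OPM2 KO1R against KO1EV every r was positive (0.18, 0.09 and 0.26).

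Over all genes, the number called in OPM2 ranged over the settings from 1224 to 6068 in KO1 against WT (2187 in the fit reported), 390 to 4243 in KO2 (1480), 424 to 2726 in KO1R against KO1EV (848), 246 to 3302 in KO1EV against KO1 (510), 863 to 4589 in KO1R against WT (1513) and 1195 to 6979 between the clones (3086). Each highest number came without the 2 libraries that stand apart. Median scaling moved the split of higher to lower calls from 1494 and 693 to 1044 and 1065 in OPM2 KO1 against WT (1080 and 1143 with quantile scaling), from 320 and 528 to 484 and 266 in KO1R against KO1EV (426 and 345), from 658 and 855 to 851 and 729 in KO1R against WT, and from 1118 and 1968 to 1505 and 1584 between the clones (1575 and 1618). In Delta47 it moved from 3122 and 1669 to 2006 and 2313 in KO2 against WT (2459 and 2096), from 2773 and 4043 to 3961 and 2852 in KO2R against KO2, and from 2742 and 1894 to 1898 and 2576 between the clones.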
